A study of Mus musculus with 4 samples.

Results

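Malat1, Neat1, Meg3, Miat, Rmst, Snhg11 and Kcnq1ot1 are long noncoding RNAs that are known to stay largely in the nucleus. They were taken by gene symbol, with no use of their values, and made up 7 of the 23337 gene rows of the count tables. The tables hold RNA-seq of 4 mice, 1 library each, made from cells that had been sorted for tdTomato (Tomato) fluorescence out of the olfactory epithelium after it had regenerated. The 2 control mice were K5Cre;Lmnb1 fl/+, so that their sorted cells are labelled Lmnb1+/-, and the 2 mutant mice were K5Cre;Lmnb1 fl/fl, with sorted cells labelled Lmnb1-/-. Controls therefore carried the Cre and 1 deleted allele as well, and both genotypes carried the Cre-dependent tdTomato reporter R26 Ai9. The background strain was mixed in all mice, with the K5Cre and Lmnb1 fl lines backcrossed to B6. Methimazole, which injures the olfactory epithelium, was given to all 4 mice as 2 injections of 50 mg/kg each, followed by 4 weeks of recovery. Libraries fall into experimental group 1 (control 1 and mutant 1) and experimental group 2 (control 2 and mutant 2), which per the series' design text differed in treatment, parents, age and sex, so that these cannot be told apart in any difference between the groups. Libraries of a group were also prepared and sequenced together. Mice were 2 to 3 months old when methimazole was given, with no age stated for each library.

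The Keratin 5 promoter drives Cre in horizontal basal cells, the reserve stem cells of this epithelium, and after damage the cells sorted are those stem cells and whatever they produced. The sorted cells were therefore a mixture, and the tissue itself was mosaic. Lamin B1 is a protein of the mesh that lines the inside of the nuclear envelope, and the comparison of genotypes addresses whether the levels of RNAs that act inside the nucleus differ when it is removed. RNA was depleted of ribosomal RNA and not selected for poly(A) tails, which matters here because the mature 3′ ends of Malat1 and of the long form of Neat1 carry no poly(A) tail.

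Long noncoding RNAs of the nucleus act as RNA, without being translated. Malat1 lies in nuclear speckles, the domains in which splicing factors are stored. The long form of Neat1 is the scaffold on which paraspeckles, another kind of nuclear body, are built. Kcnq1ot1 and Meg3 come from imprinted regions: Kcnq1ot1 is made from the paternal chromosome and silences neighbouring genes there, whereas Meg3 is made from the maternal chromosome. Miat is known from neurons and retinal precursors and carries repeats of a splicing signal, Rmst is known as a partner of the neural transcription factor Sox2, and Snhg11 belongs to the host genes of small nucleolar RNAs.

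Malat1 and Neat1 lie side by side on the minus strand of chromosome 19 in the mm10 (GRCm38) genome, at chr19:5795690-5802672 and chr19:5824708-5845478 in GENCODE. Malat1 is a transcript of 6983 bases in 1 exon, and the long Neat1 transcript holds 20771 bases in 1 exon. RefSeq places mascRNA, a small tRNA-like RNA of 58 bases that is cut from the Malat1 precursor, at chr19:5795924-5795981, so that 6691 bases of Malat1 precede it. The bases just before that point and the last bases of the long Neat1 transcript are shown because both 3′ ends are known to be made by RNase P and to be protected by a triple helix in place of a tail. Capitals mark the 11 bases at which both sequences end before the cleavage point, and in Malat1 the letters after the capitals are mascRNA. The stretches are chr19:5795924-5796091 and chr19:5824708-5824817, minus strand, read from GENCODE transcripts.
Malat1: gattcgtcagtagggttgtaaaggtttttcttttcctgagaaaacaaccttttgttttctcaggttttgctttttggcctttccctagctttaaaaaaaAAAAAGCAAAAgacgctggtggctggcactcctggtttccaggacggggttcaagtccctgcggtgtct
Neat1: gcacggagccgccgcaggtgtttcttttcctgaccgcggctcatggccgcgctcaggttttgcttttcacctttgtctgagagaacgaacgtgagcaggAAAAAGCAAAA

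Miat lies at chr5:112213228-112229395 on the minus strand, and its longest transcript has 9163 bases in 7 exons. The letters ACTAAC, which match the core of a splicing branch point and are the repeat known from Miat, occur 11 times on the sense strand of that transcript, 6 of them within TACTAAC. Of the 1784 GENCODE transcripts of 7330 to 11453 bases, lengths near its own, 0.168% hold at least as many copies, Miat forms included. The stretch below, chr5:112216760-112216869 in exon 7, was chosen because no other window of 110 bases in the transcript holds more copies than its 4, which stand in capitals.
Miat: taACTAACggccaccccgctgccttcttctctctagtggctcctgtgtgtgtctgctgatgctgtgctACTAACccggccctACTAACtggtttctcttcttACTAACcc
The other RNAs held fewer copies of ACTAAC per kb, from 0 in Malat1 and Rmst to 0.215 in Kcnq1ot1, against 1.20 in Miat. A match of letters is a description and does not show binding.

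Kcnq1ot1 is annotated as 1 exon of 93092 bases at chr7:143203458-143296549 on the minus strand, antisense to Kcnq1, with which it shares up to 460 bases of exon. Meg3 lies at chr12:109541001-109571726 on the plus strand, Rmst at chr10:92071037-92165170 on the minus strand and Snhg11 at chr2:158375638-158386145 on the plus strand. GENCODE gives Snhg11 a protein-coding biotype, whereas RefSeq lists it as a long noncoding RNA. Whether the counting used strand is not given in the sources used here, so reads of these genes and of antisense genes over the same bases cannot be told apart.

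Promoter windows of 300 bases (250 before to 50 after the start, RefSeq, GRCm38.p6) matched 5 of the 7 RNAs, and the windows of Meg3 and Kcnq1ot1, both RNAs of imprinted regions, are shown. Both strands were searched for TATAAA (the TATA box), CCAAT (the CCAAT box), GGGCGG (the GC box), TAATTA (a homeodomain core), CCCNNGGG (a core known from Ebf factors) and TGACGTCA (the cAMP response element), and matches stand in capitals, with overlapping TATAAA matches on the 2 strands running together in Meg3. The Meg3 window (chr12:109540746-109541045) held CCAAT once, TGACGTCA once and TATAAA on both strands. The Kcnq1ot1 window (chr7:143296498-143296797) held CCAAT 3 times and no other of these motifs.
Meg3: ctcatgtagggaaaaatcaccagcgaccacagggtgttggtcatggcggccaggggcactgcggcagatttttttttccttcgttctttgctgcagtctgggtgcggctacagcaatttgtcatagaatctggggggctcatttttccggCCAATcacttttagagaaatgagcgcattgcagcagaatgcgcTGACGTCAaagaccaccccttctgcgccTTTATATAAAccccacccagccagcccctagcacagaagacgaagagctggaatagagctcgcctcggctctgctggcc
Kcnq1ot1: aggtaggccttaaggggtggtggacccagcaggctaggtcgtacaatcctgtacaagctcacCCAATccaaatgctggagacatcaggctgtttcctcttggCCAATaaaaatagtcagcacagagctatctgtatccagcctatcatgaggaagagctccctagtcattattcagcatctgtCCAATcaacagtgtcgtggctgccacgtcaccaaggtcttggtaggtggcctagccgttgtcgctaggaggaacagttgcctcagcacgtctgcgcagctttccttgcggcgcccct
Among 32544 promoter windows of this length, 37.4% held CCAAT, 13.6% TATAAA and 1.80% TGACGTCA. GGGCGG stood in 35.9% of windows and, of the RNAs matched, in that of Miat. The windows of Malat1 and Snhg11 held none of the 6 motifs. The letters CCCNNGGG (13.7% of windows) occurred in a Meg3 window from a later start, and TAATTA (5.29%) in none.

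Gene counts totalled 14833396 to 23704638 per library, so that a floor of 3 counts amounts to 0.127 to 0.202 CPM (counts-per-million of gene counts in the library). Mutant 1 stood apart. Reads outside genes were 39.4% in mutant 1 and 22.1% to 24.9% in the other libraries, and 1603 genes had no count, compared with 5173 to 6053 elsewhere. In genes silent in the other libraries, mutant 1 had a median of 1.80 counts per kb. The experimental groups differed as well. The tally of alignments that were not unique was 67710764 and 62182762 in control 1 and mutant 1. It was 10308536 and 6757456 in control 2 and mutant 2. The part of this in differences between the groups was not tested. The targeted gene Lmnb1 was at 20.1 and 18.5 CPM in controls 1 and 2 and at 14.7 and 10.04 CPM in mutants 1 and 2, and its log2 fold change, -0.72 (SE 0.31), did not pass the test (edgeR adjusted p = 0.195). The floxed part is exon 2, and counts over the whole gene do not resolve it. The study itself reported depletion of the Lmnb1 transcript in sorted mutant cells by PCR. That PCR amplified a part of the transcript outside the floxed exon, so it does not resolve exon 2 either. It also found that most Tomato-positive cells of mutant tissue lacked lamin B1 staining. Every marker of mature neurons, immature neurons, progenitors, horizontal basal cells and sustentacular cells was above 0 in each library. The 15 mature neuron markers summed to 20556 and 9151 CPM in controls 1 and 2 and to 12178 and 2749 CPM in mutants 1 and 2. Of the 15, 14 were called lower in mutants by edgeR, beside 664 of 15438 tested genes. Immune markers were also present, at 398 to 868 CPM in sum, although the cells had been sorted. That sum is no steady level of these markers. Lyz2 alone was at 218 and 681 CPM in controls 1 and 2 and at 161 and 581 CPM in mutants 1 and 2. Of the 12 markers, Lyz2 was called higher in group 2 and 4 were called lower (C1qa, C1qb, Csf1r and Itgam). Among all 15438 tested genes, 2729 were called higher and 2156 lower.

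Levels were compared between RNAs as counts per kb of exon scaled so that all genes of a library share the same total, here called the per-length level. Malat1 led by a wide margin, with a median per-length level of 1700 (range 787 to 2978), above 99.6% to 99.9% of genes. Neat1 followed at 15.4 (6.60 to 28.2) and Kcnq1ot1 at 11.9 (10.04 to 46.4), and the ranges of these neighbours overlapped, so their order is not settled. Miat was next at 3.69 (2.04 to 6.81). Snhg11, at 0.960 (0.880 to 1.24), lay below Miat, and Rmst (0.295, 0.0683 to 1.07) and Meg3 (0.141, 0.0241 to 0.414) were lowest. Snhg11 and Rmst overlapped, as did Rmst and Meg3. Scaled by its longest transcript in place of all its exons, Rmst had a mean of 0.871 in place of 0.431. Neat1 was scaled by the length of its long form, and with the short form of 3004 bases its mean per-length level would be 113 in place of 16.4. Counts per gene do not separate the forms.

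**Figure D1:**
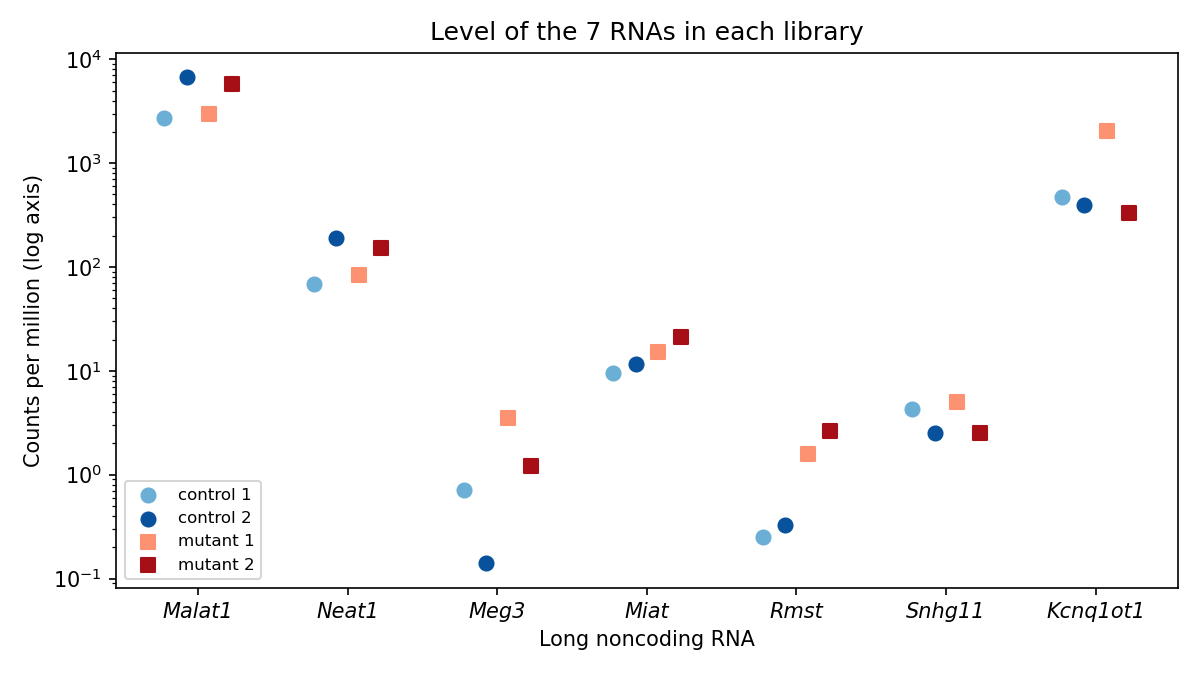
Level of each RNA in CPM (vertical axis, log scale) in the 4 libraries, with controls as circles and mutants as squares, and group 1 in the lighter shade. Malat1 and Neat1 separate by experimental group, Miat, Rmst and Meg3 by genotype, and Kcnq1ot1 by mutant 1 alone, at 2032 CPM.

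Between genotypes, none of the 7 RNAs passed the test after adjustment over all genes. Of the 15438 genes that passed the filter (CPM above 1 in at least 2 libraries), 5.58% were called by edgeR's likelihood-ratio test at an adjusted p under 0.05, against 0 of the 7 RNAs. The quasi-likelihood test of edgeR called 3.96% of genes and DESeq2 called 7.49% of the 9452 to which it gave an adjusted p. Neither called any of the 7, although DESeq2 left Meg3, Miat, Rmst and Snhg11 without an adjusted p. At an unadjusted p under 0.05 the likelihood-ratio test gave 3 of the 7, all higher in mutants (Meg3, Miat and Rmst), beside 6.32% of all tested genes. The same 3 RNAs were the ones for which both mutants lay above both controls, compared with 15.2% of tested genes, and none lay below. Meg3 and Rmst passed the filter only through the mutants, so those counts over the RNAs support nothing by themselves. The median log2 fold change of the 7 was 0.71 and that of all tested genes -0.01, but the median was 0.05 over the 5 RNAs left without Meg3 and Rmst. Within groups, the median log2 ratio of the 7 was 0.59 in group 1 and -0.035 in group 2.

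Malat1 was at 2746 and 6702 CPM in controls 1 and 2 and at 2956 and 5807 CPM in mutants 1 and 2. The genotypes overlapped completely, and the libraries fell into a low pair from group 1 and a high pair from group 2. The ratio of mutant to control was 1.08 in group 1 and 0.867 in group 2. The fitted fold change was 0.929 with a 95% interval of 0.604 to 1.43, which is -0.11 (SE 0.32) on the log2 scale (edgeR adjusted p = 0.946). Malat1 took 0.275% of gene counts in control 1 (95% Wilson interval 0.272% to 0.277%), 0.670% in control 2 (0.667% to 0.674%), 0.296% in mutant 1 (0.293% to 0.298%) and 0.581% in mutant 2 (0.577% to 0.585%), where the intervals cover counting error only. It ranked between 3 and 13 among all genes by counts.

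Neat1 was at 68.5 and 189 CPM in controls 1 and 2 and at 84.4 and 153 CPM in mutants 1 and 2. It had the same order of libraries as Malat1, and its log2 fold change was -0.06 (SE 0.20, edgeR adjusted p = 0.950). The fold change of 0.960 had a 95% interval from 0.732 to 1.26, the narrowest of the 7. Malat1 had 40.1 and 35.5 counts per Neat1 count in controls 1 and 2 and 35 and 38.0 in mutants 1 and 2, so the ratio of these neighbours varied little while each of them varied by a factor of 2.44 (Malat1) or 2.76 (Neat1) in CPM between the lowest and highest library. These ratios are of counts, not of per-length levels.

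Miat had 224 and 250 counts in controls 1 and 2 and 337 and 312 counts in mutants 1 and 2. In CPM these were 9.45 and 11.7 in controls and 15.2 and 21.0 in mutants, with the lower mutant above the higher control. Mutant over control was 1.61 in group 1 and 1.80 in group 2. The log2 fold change of 0.71 (SE 0.33) did not pass adjustment over all genes (edgeR adjusted p = 0.237).

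Rmst, the partner of Sox2, had 6 and 7 counts in controls 1 and 2 and 35 and 39 counts in mutants 1 and 2. The genotypes did not overlap, at 0.253 and 0.327 CPM in controls and 1.58 and 2.63 CPM in mutants. On the log2 scale the change was 2.75 (SE 1.12, edgeR adjusted p = 0.174), and the 95% interval of the fold ran from 1.46 to 30.9. At 1.80 counts per kb, the background of mutant 1 would account for 13.4 of its 35 counts. With that background subtracted the log2 fold change was 2.44, an alternative chosen after the data were seen. Sox2 itself was at 90.8 and 146 CPM in controls 1 and 2 and at 137 and 199 CPM in mutants 1 and 2, with a log2 fold change of 0.46 (SE 0.19) that did not pass edgeR's test (adjusted p = 0.147) but was called by DESeq2.

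Meg3 had 17 and 3 counts in controls 1 and 2 and 78 and 18 counts in mutants 1 and 2. In CPM it was 0.717 and 0.140 in controls and 3.52 and 1.21 in mutants. The counts of control 1 and mutant 2 were nearly equal, 17 and 18, and it is the scaling to library size that parts them. The fitted log2 value was 2.56 (SE 1.07, edgeR adjusted p = 0.179), and the ratios within groups were 2.06 and 2.45 on the log2 scale. Background would account for 32.6 of the 78 counts in mutant 1, and its subtraction gave a log2 fold change of 2.17. With mutant 1 left out, in a fit without the experimental group, the log2 fold changes were 1.46 for Meg3, 3.13 for Rmst and 0.97 for Miat, none past the test.

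In sum, the progenitor markers also lay higher in both mutants, beside Miat, Rmst and Meg3. The 10 markers summed to 299 and 302 CPM in controls 1 and 2 and to 470 and 524 CPM in mutants 1 and 2. All 9 tested had a positive log2 fold change. Of them, 4 (Kit, Hes6, Mki67 and Top2a) were called higher in mutants by edgeR, beside 197 of 15438 tested genes. Of those 4, Hes6 and Mki67 overlapped between genotypes in CPM. No marker of the list was at 0 in any library. Higher sums in the mutant of each group were not particular to progenitors. Horizontal basal cell markers summed to 2223 and 1654 CPM in controls 1 and 2. In mutants 1 and 2 the sums were 3330 and 2184 CPM. All 9 had a positive log2 fold change and 2 were called higher (Krt15 and Egfr). Sustentacular sums were likewise higher in the mutant of each group, with 0 called. Those of mature and immature neurons were lower. The part of any of these cells in the levels of the 3 RNAs was not tested. In such bulk samples, a change in the number of cells of a type and a change in RNA per cell cannot be told apart.

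Snhg11 was at 4.26 and 2.53 CPM in controls 1 and 2 and at 4.97 and 2.49 CPM in mutants 1 and 2. Genotypes overlapped and the higher pair came from group 1. The log2 fold change was 0.05 (SE 0.65, edgeR adjusted p = 0.991), and with 37 to 110 counts per library the interval of the fold was wide, 0.430 to 2.49.

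Kcnq1ot1 was at 467 and 393 CPM in controls 1 and 2 and at 2032 and 334 CPM in mutants 1 and 2. A single library stood out, and mutant 2 was the lowest of the 4. Mutant over control was 4.35 in group 1 and 0.851 in group 2. The fitted log2 value of 0.89 (SE 0.43, edgeR adjusted p = 0.339) therefore averages opposite directions, and it was -0.39 when mutant 1 was left out in a fit without the experimental group. Mutant 1 exceeded the next library by 2.02 on the log2 scale, a gap that 41 of the tested genes (0.266%) matched or passed. By counts, Kcnq1ot1 ranked 18 among all genes in mutant 1 and 221 to 359 in the others. It had 483 counts per kb in mutant 1 and 53.2 to 119 elsewhere. The background of mutant 1 would account for 168 of its 44999 counts, or 0.373%. That background comes from genes silent in the other libraries, so it does not measure extra reads at loci that are transcribed. Kcnq1 on the opposite strand was at 37.4 and 30.0 CPM in controls 1 and 2 and at 27.1 and 23.3 CPM in mutants 1 and 2. Kcnq1ot1 had 12.5, 13.1 and 14.4 counts per Kcnq1 count in control 1, control 2 and mutant 2 and 74.9 in mutant 1. Strand use in counting is not known, and whether reads of the opposite strand entered the Kcnq1ot1 count was not tested. The greater share of reads outside genes in mutant 1 was measured in the same library, and its part in the Kcnq1ot1 level beyond the background subtracted was not tested.

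**Figure D2:**
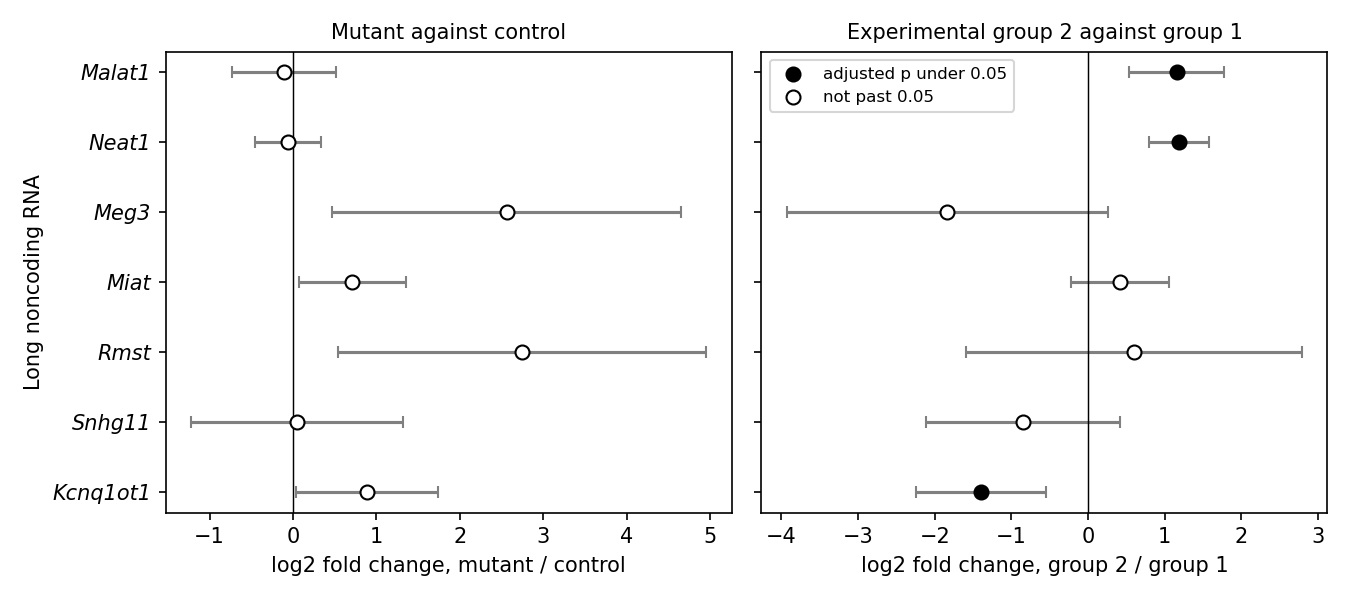
Log2 fold changes of the 7 RNAs (horizontal axes) with 95% intervals, for mutant against control on the left and experimental group 2 against group 1 on the right. Filled points passed an adjusted p of 0.05 in edgeR's likelihood-ratio test: none on the left, and Malat1, Neat1 and Kcnq1ot1 on the right.

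More of these RNAs were called between the experimental groups than between the genotypes. The experimental group coefficient of the same model called 3 of the 7, at a background of 31.6% of tested genes, and 17.7% of tested genes were called higher in group 2. The quasi-likelihood test called the same number of the RNAs (background 31.9%) and DESeq2 called Malat1 and Neat1 (background 25.6%). Both samples of group 2 lay above both of group 1 for Malat1 and Neat1, as for 29.7% of tested genes. With 7 RNAs, 3 calls are near the share among all genes and are no result particular to these RNAs.

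Malat1 was 2.44 times as high in control 2 as in control 1 and 1.965 times as high in mutant 2 as in mutant 1. Its log2 fold change between groups was 1.16 (SE 0.32, edgeR adjusted p = 0.00189), although without the filter on low counts the adjusted p was 0.483. Neat1 was 2.76 times as high in control 2 as in control 1 and 1.81 times as high in mutant 2 as in mutant 1. The difference was 1.19 (SE 0.20) on the log2 scale (edgeR adjusted p = 1.20e-07). Kcnq1ot1 was lower in group 2 by the model, with a log2 value of -1.40 (SE 0.43, edgeR adjusted p = 0.0127), and that value rests on mutant 1, as the controls differed by a factor of 0.841 only. DESeq2 gave it an adjusted p of 0.317 and the fit without a filter 0.226. Meg3 (-1.83, adjusted p = 0.190), Snhg11 (-0.84, adjusted p = 0.340), Miat (0.42, adjusted p = 0.353) and Rmst (0.60, adjusted p = 0.729) did not pass.

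Cell type markers also moved between the groups. The 9 sustentacular markers summed to 7973 and 10684 CPM in control 1 and mutant 1 and to 15190 and 19485 CPM in control 2 and mutant 2. Of the 9, 4 were called higher in group 2, beside 2729 of 15438 tested genes. Of the 15 mature neuron markers, 13 were called lower in group 2, beside 2156 of 15438 tested genes. Their part in the levels of Malat1 and Neat1 was not tested.

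For the bodies in which Malat1 and Neat1 lie, no listed protein was called between genotypes, beside 5.58% of all tested genes. At that share, lists of this length hold few calls, so the lack of calls is no result about these proteins. Of 20 nuclear speckle proteins, 0 were called, with a median log2 fold change of 0.01, and of 16 paraspeckle proteins, 0 were called, with a median of -0.01. No member of either list reached an unadjusted p under 0.05 in edgeR, and the quasi-likelihood test and DESeq2 called none. The paraspeckle core proteins Sfpq (-0.12, SE 0.21), Nono (0.11, SE 0.23) and Pspc1 (0.14, SE 0.17) and the speckle proteins Srsf1 (-0.04, SE 0.23) and Son (-0.17, SE 0.24) had small log2 fold changes between genotypes, none past the test. Between experimental groups, 11 of the 20 speckle proteins were called higher in group 2 and 0 were called lower (median 0.59, compared with -0.03 for all tested genes), beside the 17.7% of tested genes that were called higher. Son, the scaffold of speckles, was at 290 and 280 CPM in control 1 and mutant 1 and at 533 and 474 CPM in control 2 and mutant 2 (0.85, SE 0.24, edgeR adjusted p = 0.00228). The splicing factor gene Luc7l3 was at 41.5 and 49.9 CPM in control 1 and mutant 1 and at 112 and 103 CPM in control 2 and mutant 2 (1.26, SE 0.17, edgeR adjusted p = 6.65e-12). Of the paraspeckle proteins, 3 were called higher (Cpsf6, Tardbp and Taf15) and 2 called lower (Nudt21 and Dazap1) in group 2, with a median of 0.18. Together these are near the 31.6% of all tested genes that were called between groups in either direction.

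The 12 factors that process or turn over such RNAs had 0 calls between genotypes (median 0.06), beside 5.58% of all tested genes. In group 2, 4 were called higher, beside 17.7% of all tested genes. The RNA components of RNase P and RNase MRP, taken from the list of other long noncoding and structured RNAs, differed far more between groups. Rpph1, the RNA of RNase P, was at 31955 and 25791 CPM in control 1 and mutant 1 and at 4565 and 3071 CPM in control 2 and mutant 2 (-2.91, SE 0.35, edgeR adjusted p = 2.09e-12). Rmrp, the RNA of RNase MRP, went from 25997 and 19314 CPM in group 1 to 1542 and 1794 CPM in group 2 (-3.72, SE 0.36, edgeR adjusted p = 1.32e-17). Malat1 and Neat1 were higher in group 2, where these small RNAs were lower. Of all tested genes, 17.7% were called higher in group 2, and a link between these RNAs was not tested. Between genotypes Rpph1 was not called by the likelihood-ratio test (-0.50, SE 0.35, edgeR adjusted p = 0.565), whereas the quasi-likelihood test and DESeq2 called it.

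Of 37 other long noncoding and structured RNAs listed, 24 were in the count tables and 18 were tested. Between genotypes there were 0 calls, 5 at an unadjusted p under 0.05 in edgeR's likelihood-ratio test and a median log2 fold change of 0.34. Of all tested genes, 5.58% were called between genotypes, and 2460 of 15438 were at an unadjusted p under 0.05. Between groups 4 were called higher and 6 called lower in group 2, 10 of 18 in all, beside 31.6% of all tested genes, of which 2729 were called higher and 2156 lower. Xist, which coats the inactive X chromosome of females, was at 158 and 207 CPM in control 1 and mutant 1 and at 1.40 and 4.65 CPM in control 2 and mutant 2 (-6.04, SE 0.27), beside the difference in sex between the groups. Its genotype difference was 0.79 (SE 0.26, edgeR adjusted p = 0.0518). Tug1, another nuclear RNA, was at 76.1 and 93.0 CPM in control 1 and mutant 1 and at 177 and 186 CPM in control 2 and mutant 2 (1.14, SE 0.18, edgeR adjusted p = 3.02e-08), the same direction as Malat1. Of the 11 small nucleolar RNA hosts tested, 0 were called between genotypes (median 0.25, 0 at an unadjusted p under 0.05). The host Gas5 was higher in group 2 (1.02, SE 0.18, edgeR adjusted p = 3.67e-07), whereas Snhg11 had a log2 fold change of -0.84 that did not pass.

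Of the 9 genes listed from and beside the imprinted Dlk1-Dio3 region of Meg3, 3 passed the filter (Begain, Wdr25 and Rian). Between genotypes 0 of them were called, beside 5.58% of all tested genes. Wdr25, chosen here after its values were seen, was at 10.4 and 6.08 CPM in controls 1 and 2 and at 9.17 and 7.42 CPM in mutants 1 and 2, above Meg3 in each library. Dlk1 and Mirg had no count in control 1, control 2 or mutant 2, which allows up to 0.127, 0.140 and 0.202 CPM there, and were at 0.316 and 0.271 CPM in mutant 1. Rian, made from the same chromosome as Meg3, was at 3.92 and 0.421 CPM in controls 1 and 2 and at 3.48 and 1.21 CPM in mutants 1 and 2. The genotypes overlapped (log2 fold change 0.53, SE 0.83, edgeR adjusted p = 0.866), and Rian was lower in group 2 (-2.30, SE 0.83, edgeR adjusted p = 0.0313).

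Of 12 genes of the Kcnq1 domain, 10 were tested and 0 were called between genotypes, with a median log2 fold change of -0.10. The share called among all tested genes was 5.58%. DESeq2 called Osbpl5, which was at 302 and 197 CPM in controls 1 and 2 and at 242 and 120 CPM in mutants 1 and 2 (edgeR log2 fold change -0.58, SE 0.22, adjusted p = 0.101). Cdkn1c, a growth inhibitor that Kcnq1ot1 is known to silence, was at 22.9 and 14.03 CPM in controls 1 and 2 and at 20.2 CPM in both mutants. For Cdkn1c, mutant 1 was within the range of the other libraries, and a link to its Kcnq1ot1 level was not tested. Kcnq1, the potassium channel gene, was at 37.4 and 30.0 CPM in controls 1 and 2 and at 27.1 and 23.3 CPM in mutants 1 and 2 (-0.47, SE 0.22, edgeR adjusted p = 0.248).

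Of 11 tested genes that flank Malat1, Neat1, Rmst, Miat or Snhg11, 1 was called higher in mutants, beside 197 of 15438 tested genes. It was Arhgap40 near Snhg11, at 22.4 and 41.5 CPM in controls 1 and 2 and at 35.7 and 70.7 CPM in mutants 1 and 2 (0.67, SE 0.18, edgeR adjusted p = 0.00947), although DESeq2 did not call it and the values overlapped between genotypes. Frmd8 (0.13, SE 0.18), beside the Malat1 and Neat1 locus, and Nedd1 (0.05, SE 0.25), beside Rmst, did not pass. Of 6 proteins listed as partners of Miat or Rmst, 5 were in the count tables. Between genotypes 0 of these were called by edgeR, beside 5.58% of all tested genes. The neuronal splicing factor Celf3 had a log2 fold change of -0.22 (SE 0.17).

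**Figure D3:**
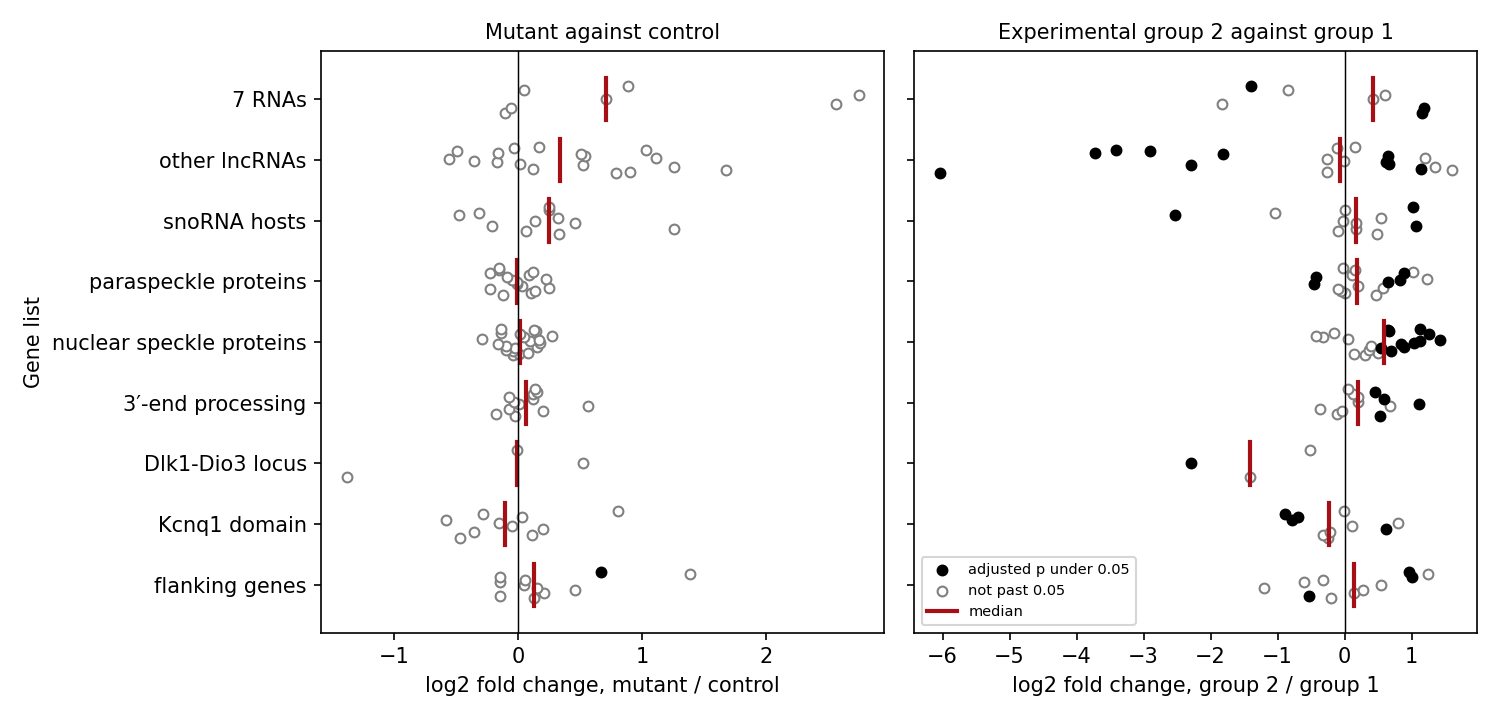
Log2 fold change (horizontal axes) of each tested gene of the fixed lists, for mutant against control on the left and group 2 against group 1 on the right. Filled points passed an adjusted p of 0.05 in edgeR, red bars are list medians, and 1 flanking gene passed on the left while 11 nuclear speckle proteins passed on the right.

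The genes with the nearest pattern over the 4 libraries were found as the smallest root mean square distance between log2 CPM values, each centred on its own mean, among tested genes with a mean of at least 10 CPM. With 4 libraries many genes lie close by, and the distance is a description only. Malat1 was nearest to Scgb1c1 (0.0125), Akap9 (0.0274) and Mast4 (0.0277). Scgb1c1 was at 899 and 2156 CPM in controls 1 and 2 and at 973 and 1888 CPM in mutants 1 and 2. Neat1 was nearest to Fam76b (0.0389), Upf2 (0.0400) and Zfp84 (0.0431), and Miat to Vangl2 (0.0273), Irf9 (0.0378) and Ect2 (0.0446). Snhg11 was nearest to 2410016O06Rik (0.0247), 2410022L05Rik (0.0307) and Akr7a5 (0.0312). Each of these 4 RNAs thus had genes within 0.05 on the log2 scale.

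Kcnq1ot1, Rmst and Meg3 had no gene as close. Kcnq1ot1 was nearest to 6030422M02Rik (0.118), Zfp277 (0.122) and Gm9159 (0.133). Zfp277 was at 133 and 111 CPM in controls 1 and 2 and at 493 and 102 CPM in mutants 1 and 2, so that mutant 1 stood out there too. Rmst was nearest to Usp18 (0.471), Irf7 (0.481) and Ifi27l2a (0.600), and Meg3 to Ifi27l2a (0.533), Lcn4 (0.587) and Hist1h2bj (0.608). Ifi27l2a was at 18.1 and 9.77 CPM in controls 1 and 2 and at 60.4 and 47.7 CPM in mutants 1 and 2. The low counts of Meg3 and Rmst limit the precision of these distances. Both, and also Snhg11, lay below 10 CPM in each library, so genes of their own level were not among the candidates.

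**Figure D4:**
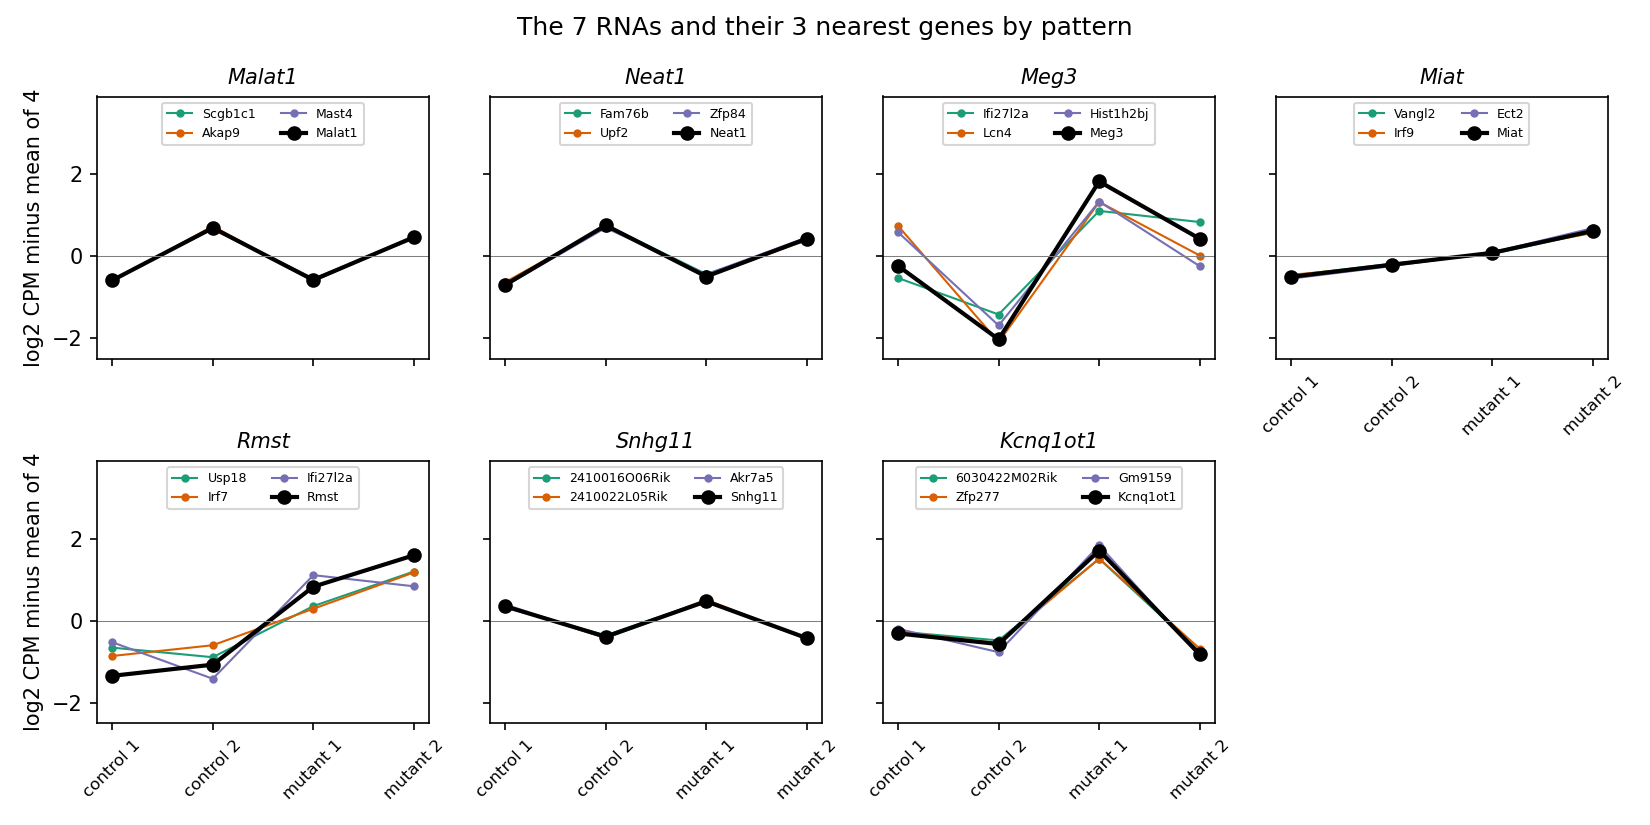
Log2 CPM of each RNA (black) and its 3 nearest genes (colours) in the 4 libraries, each minus its mean over the libraries. The lines of Malat1, Neat1, Miat and Snhg11 lie on those of their nearest genes, whereas those of Meg3 and Rmst stay apart, at distances of 0.471 or more. Candidate genes had a mean of at least 10 CPM, above the level of Meg3 and Rmst.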

How the data were processed

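RNA-seq counts of 4 libraries were analysed, 2 per genotype. The deposited values are raw counts per gene, made by the authors with HTSeq in intersection-nonempty mode from single-end reads. Reads had been depleted of ribosomal RNA and aligned to mm10. The submitters' processing notes name Bowtie2 2.0.6 and TopHat2 2.0.7. Gene annotation and the strand setting are not given in the sources used here. Reads with several alignments were not counted, which affects repeated sequence. The 5 tally lines at the end of each file were left out: reads outside genes made up 22.1% to 39.4% of uniquely aligned reads.

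For the 15438 genes with CPM above 1 in at least 2 libraries, edgeR 4.0.16 was used under R 4.3.3: TMM factors, a model of genotype and experimental group, the likelihood-ratio test, and Benjamini-Hochberg adjustment with a threshold of 0.05. The study's methods used this test, filter and model, but its edgeR input also held the tally lines as rows. Keeping them was run as an alternative. SEs are Wald errors. The experimental group is the replicate block, because the mutant and control of a group were littermates handled together. Deviations of same-group libraries from their genotype means correlated at 0.52 across 15438 genes. Replicates are separate mice. Alternatives were the quasi-likelihood test, DESeq2 1.42.0, RLE factors, other filters, thinning to 14833396 counts, tally lines kept, no block, each group alone and each library left out. The scripts were tested on simulated data.

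The members and gene lists were chosen with earlier results of these data known. Named were all 7 RNAs, genes of other lists past the threshold (at most 6 by p), a fixed panel, and the 3 nearest genes by pattern. A gene of the fixed panel is not reported here. The comparison of experimental groups, the subtraction of a background from mutant 1, and the genes named for either were chosen after their values were seen. Symbols matched GENCODE M21 or an older name for 98.0%, and sequences are from GENCODE and RefSeq. Ratios within a group used log2 CPM with a prior count of 2 and carry no test. Wilson intervals and floors cover counting error only, whereas intervals of fold changes are Wald intervals of the fit and include the spread between libraries.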

Additional observations from a re-analysis of the deposited data

Results flagged for a closer look

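The mutant to control ratio pointed in opposite directions in the 2 experimental groups for 4 of the RNAs. With 1 library per genotype in a group, these differences were not tested. For Kcnq1ot1 the log2 ratio was 2.02 in group 1 and -0.25 in group 2, a difference of 2.28. For Neat1 the log2 ratios were 0.21 and -0.32, a difference of 0.53. For Malat1 they were 0.009 and -0.23, a difference of 0.234, and for Snhg11 0.12 and -0.035, a difference of 0.157. List medians that also changed sign between the groups, again untested, were those of the 7 RNAs (0.59 and -0.035, a difference of 0.621), of the nuclear speckle proteins (a difference of 0.0351), of the 3 tested genes of the Dlk1-Dio3 region (a difference of -0.543) and of the immune markers (-1.54 and 1.08, a difference of -2.62). Reads outside genes, which no comparison used, made up 39.4% in mutant 1, compared with 23.8% and 24.9% in the controls.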

How the results depend on the processing

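The count of 0 RNAs called between genotypes held under every alternative run, replicate block or not. The lowest adjusted p of any of the 7 was 0.173 (edgeR likelihood-ratio test with RLE factors, Rmst). Fits without the block called few genes of any kind, and DESeq2 left Meg3, Miat, Rmst and Snhg11 without an adjusted p. Such settings could hardly call these RNAs, so the count does not show that their levels were unchanged. Of 101 alternative genotype values, 88 kept the sign of the reported value and 13 turned it, 11 of those when 1 library was left out or 1 experimental group was taken alone. Leaving out 1 library (without the block, since 3 libraries leave it no residual degrees of freedom, so that the lone library is taken to vary like the pair of the other genotype) gave log2 fold changes of -0.74 to 0.67 for Malat1, -0.71 to 0.78 for Neat1, -0.47 to 0.51 for Snhg11 and -0.39 to 2.18 for Kcnq1ot1. Among these, the values that turned sign were also 0.28 for Malat1 and 0.23 for Neat1 without mutant 1, and -0.21 for Snhg11 without control 2. Group 1 alone gave 0.0090 for Malat1 and 0.21 for Neat1, and group 2 alone gave -0.035 for Snhg11 and -0.25 for Kcnq1ot1. Snhg11 was at -0.014 after thinning and at -0.035 after background subtraction. Meg3 and Rmst could not be tested with CPM above 1 in all 4 libraries or with tally lines kept, as they then failed the filter. Without the replicate block the count of all genes lower in mutants fell from 664 to 0 and of those higher from 197 to 6, and leaving out 1 library gave 1 to 6 lower and 5, 22, 24 or 25 higher. The quasi-likelihood test gave 117 higher. Each group alone gives no count of genes. Over all the fixed lists of other noncoding RNAs, proteins and neighbouring loci together, 1 gene was called between genotypes, compared with 2 by the quasi-likelihood test, 3 by DESeq2 and 0 without the block. Of all tested genes, the main fit called 5.58%. Without a filter on low counts, 1 of the 7 RNAs differed between experimental groups in place of 3. The mean per-length level of Snhg11 was 1.19 with the longest transcript in place of 1.01, that of Rmst 0.871 in place of 0.431, and that of Neat1 was 113 with its short form. The cause of these shifts was not tested. Depth limits Meg3 and Rmst most, with 3 to 17 counts per control.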
